A study of Homo sapiens with 12 samples.

Results

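The wild-type MYB rescue asks which transcripts of K-562 cells differ when an introduced MYB is present under an MYB siRNA, compared with the same siRNA alone. The comparison takes 6 of the 12 RNA sequencing libraries of the series, chosen by their titles: MYB-WT_Rescue replicates 1 to 3 against MYB_KnockDown replicates 1 to 3. K-562 is an established human erythroleukemic line. Every library came from K-562 cells kept under G418 as a stable line, with RNA taken 24 hours after siRNA transfection, and the design text describes the replicates as 3 individual experiments. The knockdown libraries came from the line labelled 3xTY1, whose label names no MYB, transfected with the MYB siRNA si2992. The wild-type rescue libraries came from a different stable line, labelled 3xTY-hcM, transfected with the same siRNA. The siRNA_Control libraries, used here for the level without MYB siRNA, came from the 3xTY1 line with a siGENOME non-targeting siRNA. The D152V_Rescue libraries came from another line, labelled 3xTY-D152V, with si2992. Rescue and knockdown therefore differ both in the MYB construct and in the stable line, and these cannot be told apart. The sources used here do not say whether a line was 1 clone or a pool.

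MYB is a DNA-binding transcription factor of immature blood cells. It binds a short motif with the core AAC, recruits the coactivators p300 and CBP, and is known for keeping hematopoietic progenitors dividing, with targets that include MYC and KIT. Its level normally falls as red cell precursors mature, and K-562 cells, which carry BCR-ABL1, show embryonic and fetal globin and other erythroid transcripts.

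Of the 60658 rows of the deposited table, 12701 genes had at least 1 FPKM (fragments per kilobase of transcript, scaled to library size) in at least 3 of the 6 libraries and were tested. Read depth is unknown because the table holds no counts. FPKM totals were 672616 to 798362 in 11 libraries and 1215578 in MYB_KnockDown replicate 1. That library correlated with its 2 replicates at r = 0.926 and 0.927, while every other pair of replicates reached at least 0.984, so each result below was also computed without it. All 11 genes of a list of K-562 erythroid markers had a mean of at least 1 FPKM in both groups compared, where 2 were higher and 5 lower in rescue, or 3 lower without MYB-WT_Rescue replicate 1. MYB_KnockDown replicate 1 weighs in every knockdown mean. A p-value here rests on a spread pooled over the 3 libraries of each of the 4 groups and drawn toward that of other genes. It does not measure the spread of the knockdown and rescue libraries alone.

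MYB itself (ENSG00000118513, chr6:135181308-135219172 on GRCh38) stood at 26.1, 32.9 and 31.5 FPKM in the 3 knockdown libraries and 132, 125 and 115 FPKM in the 3 wild-type rescue libraries. The control libraries had 124, 132 and 104 FPKM. All rescue libraries lay within or just above the control range, and all lay above every knockdown library. The mean was 30.2 ± 3.59 FPKM (SD, n = 3) in knockdown and 124 ± 8.87 FPKM (SD, n = 3) in rescue, or 25.1% and 103% of the control mean. The log2 difference, rescue minus knockdown on log2(FPKM + 1), was 2.01 (SE 0.13, limma adjusted p = 4.82e-06). Without MYB_KnockDown replicate 1 it was 1.91 (limma adjusted p = 1.05e-06). For the genes below, a bracketed or signed value is this log2 difference. Transcripts of the introduced and of the cells' own MYB are not separated in this value. Of the 3 MYB family genes, 2 were tested and MYB was the one called.

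Across the tested genes, 2746 were higher in wild-type rescue than in knockdown (21.6% of those tested) and 2208 were lower (17.4%), by limma at a Benjamini-Hochberg adjusted p under 0.05. The median log2 difference of the called genes was 0.72 for the higher and -0.84 for the lower ones, and 626 and 751 of them exceeded a change of 1 on the log2 scale. Over all tested genes the median difference was 0.03. Without MYB_KnockDown replicate 1, 3386 genes were higher (27.3%) and 2474 lower (19.9%). Both fits called 2579 of the same genes higher and 1896 lower, and none was called in opposite directions. The groups did not overlap for 26.8% of the genes with rescue above knockdown and for 22.1% with rescue below. Of the tested genes, 208 reached the filter only through the rescue libraries and 156 only through the knockdown libraries. Such a gene had to differ in the direction found, so its call and its place in a list count are no support for a difference. The genes named below of which this holds are C12orf75, EPB41L3, CASP4, ITGA4, CD3G and SLC4A1, through rescue, and PTPN6, BCL2A1, CD9 and PSMB8, through knockdown. Rescue minus control, given beside single genes below, was called for 9.85% of the genes in either direction. Each list count from all libraries is to be read against the 21.6% and 17.4% of all genes, and one without MYB_KnockDown replicate 1 against 27.3% and 19.9%. Other libraries left out moved these shares too. All genes gave 1881 higher and 1510 lower of 12358 without MYB-WT_Rescue replicate 1. They gave 1600 and 1347 of 12376 without its replicate 2, and 1952 and 1761 of 12370 without its replicate 3. For MYB_KnockDown replicates 2 and 3 left out, they were 2898 and 2452 of 12405 and 2994 and 2427 of 12404. A count near the shares of its own fit is no result about the list. A fit of only the 6 libraries compared called 988 genes higher in rescue than in knockdown and 752 lower.

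Known MYB targets were read first. Of 23 targets listed from the literature, 15 were expressed enough to be tested, 4 were higher in rescue, 2 were lower and the median log2 difference was 0.19. With any 1 rescue library left out 1 was lower. Both counts are near the shares of all genes, 21.6% and 17.4%. The higher members were MYC, LMO2, CDK6 and KIT, and the lower ones were NMU at -1.19 and CEBPB at -0.76 on the log2 scale. CEBPB encodes a transcription factor of myeloid cells.

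MYC (chr8:127735434-127742951), a driver of cell growth, stood at 71.2, 117 and 102 FPKM in knockdown and 194, 183 and 178 FPKM in rescue, against 217, 218 and 178 FPKM in control. Every rescue library lay above every knockdown library, and the rescue range met the lower end of the control range. The difference was 0.96 (SE 0.18, limma adjusted p = 0.00245), or 0.75 without MYB_KnockDown replicate 1.

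LMO2 (chr11:33858576-33892076), a bridging subunit of the erythroid GATA1 and TAL1 complex, had 13.7, 9.64 and 13.5 FPKM in knockdown, 26.5, 29.2 and 25.1 FPKM in rescue and 30.3, 22.3 and 31.1 FPKM in control. Its rescue values fell inside the control range and above all knockdown values. The difference was 1.09 (SE 0.17, limma adjusted p = 0.00101).

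KIT (chr4:54657957-54740715), the receptor for stem cell factor, rose from 1.74, 4.48 and 3.5 FPKM to 10.6, 7.84 and 7.94 FPKM, with 5.02, 9.48 and 6.95 FPKM in control. The groups did not overlap, although KIT is low in these cells. The difference was 1.26 (SE 0.26, limma adjusted p = 0.00412), or 0.97 without MYB_KnockDown replicate 1. CDK6 (chr7:92604921-92836573), a G1 kinase, rose from 15.4, 20.1 and 19.2 FPKM to 44, 42.4 and 41.5 FPKM. The control libraries had 32.2, 32.8 and 27.9 FPKM, so the rescue libraries passed the control level. Rescue minus knockdown was 1.19 (SE 0.12, limma adjusted p = 7.41e-05), and rescue minus control was 0.45 (limma adjusted p = 0.0366).

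STAT5A (chr17:42287439-42311943), a transcription factor activated by cytokine receptors and by BCR-ABL1, had 82.8, 62.8 and 56.7 FPKM in knockdown and 138, 145 and 109 FPKM in rescue, with 159.6, 139 and 125 FPKM in control. The groups did not overlap, and the difference was 0.95 (SE 0.17, limma adjusted p = 0.00183). UCA1 (chr19:15828947-15836321), a long noncoding RNA, rose from 28.7, 26.6 and 42.7 FPKM to 157, 171 and 192 FPKM. Its control values were 111, 103 and 115 FPKM, below all 3 rescue libraries, but rescue minus control was not called (0.66, limma adjusted p = 0.0713). Rescue minus knockdown was 2.40 (SE 0.21, limma adjusted p = 2.88e-05). MYADM (chr19:53865628-53876435), a membrane protein gene associated with myeloid differentiation, rose from 7.6, 19 and 13.2 FPKM to 46.4, 44.6 and 29.9 FPKM and had 73.9, 66.8 and 55.7 FPKM in control. All 3 rescue libraries lay between the knockdown and the control values. Its difference was 1.59 (SE 0.29, limma adjusted p = 0.00205), or 1.27 without MYB_KnockDown replicate 1. Rescue minus control was -0.70 (limma adjusted p = 0.169).

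**Figure D1:**
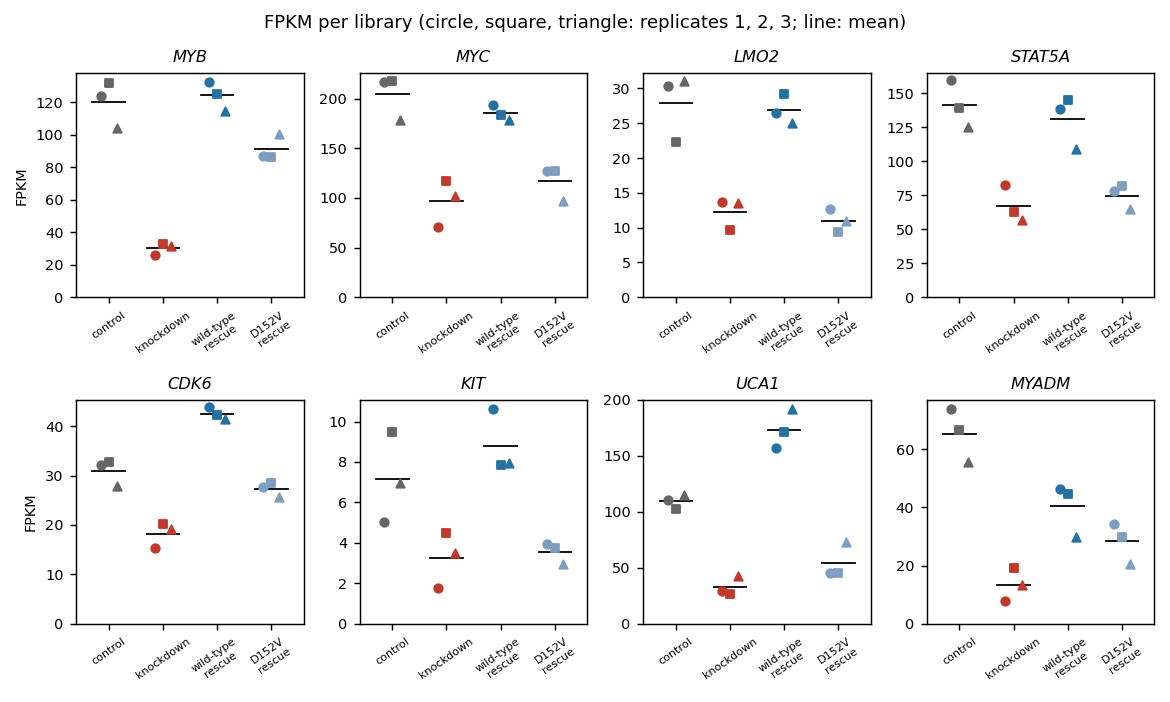
FPKM in each of the 12 libraries for MYB and 7 genes that were higher in wild-type rescue than in knockdown, with circle, square and triangle for replicates 1, 2 and 3 and a line at the group mean. In each panel every wild-type rescue library lies above every knockdown library, and MYADM is the panel in which all 3 wild-type rescue libraries stay below all 3 control libraries.

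The promoter sequences of STAT5A, KIT, CDK6 and EP300, 4 genes that were higher in rescue, are shown because MYB acts through a short DNA motif. Each is the 250 bases before the outermost annotated start site, written 5′ to 3′ on the gene's strand, from RefSeq on GRCh38.p14. Capitals mark a match to the MYB core AACGG or AACTG on either strand, the reverse complements being CCGTT and CAGTT. The stretches are chr17:42287189-42287438 on the plus strand for STAT5A, chr4:54657707-54657956 on the plus strand for KIT, chr7:92836574-92836823 on the minus strand for CDK6 and chr22:41092342-41092591 on the plus strand for EP300.
STAT5A: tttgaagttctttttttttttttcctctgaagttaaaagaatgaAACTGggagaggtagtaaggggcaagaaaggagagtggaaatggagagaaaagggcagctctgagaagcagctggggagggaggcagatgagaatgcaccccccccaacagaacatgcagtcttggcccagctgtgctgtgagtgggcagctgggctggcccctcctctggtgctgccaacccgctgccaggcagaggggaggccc
KIT: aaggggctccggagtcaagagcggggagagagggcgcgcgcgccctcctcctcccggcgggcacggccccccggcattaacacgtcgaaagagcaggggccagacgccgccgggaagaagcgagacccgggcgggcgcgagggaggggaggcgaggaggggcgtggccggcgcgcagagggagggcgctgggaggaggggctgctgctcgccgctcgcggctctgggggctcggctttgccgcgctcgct
CDK6: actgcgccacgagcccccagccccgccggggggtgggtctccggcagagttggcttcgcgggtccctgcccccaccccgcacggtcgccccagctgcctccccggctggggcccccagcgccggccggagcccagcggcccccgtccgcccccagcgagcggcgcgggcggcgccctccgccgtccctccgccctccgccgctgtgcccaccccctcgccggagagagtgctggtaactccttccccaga
EP300: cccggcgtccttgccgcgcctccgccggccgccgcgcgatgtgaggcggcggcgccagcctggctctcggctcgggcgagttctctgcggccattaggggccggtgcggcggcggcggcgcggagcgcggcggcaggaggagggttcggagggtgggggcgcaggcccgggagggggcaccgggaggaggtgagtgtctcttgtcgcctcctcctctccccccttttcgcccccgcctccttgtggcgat

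The STAT5A stretch held 1 match, whose first base lies 206 bases before the start site, and the KIT, CDK6 and EP300 stretches printed here held none of these letters. The other annotated start site of CDK6 (stretch chr7:92833960-92834209) had 1 match, and of the other 2 of STAT5A 1 had a match. A match to so short a motif was common: 45.6% of all 35116 promoters of this length held at least 1, and 44.6% of those of tested genes did. The share was 43.7% for genes higher in rescue, 43.9% for genes lower in rescue and 45.2% for tested genes that were not called. Promoters of MYB and MYADM, also higher in rescue, were read but are not printed. The MYB stretch held no match. Of the 3 start sites of MYADM, the stretch chr19:53866121-53866370 held 2 matches, chr19:53869141-53869390 held 1 and the other none. No promoter of LMO2, MYC, UCA1 or HBE1 was read.

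By RNA level, genes of the proteins that MYB recruits or that modify it were higher in rescue more often than lower. All 35 listed coactivators, corepressors and modifiers were tested, 11 were higher and 2 were lower, with a median log2 difference of 0.40. These were 31.4% and 5.71%, against 21.6% and 17.4% of all genes. Leaving out MYB_KnockDown replicate 1 gave 14 higher and 3 lower, with a median of 0.20. EP300 (chr22:41092592-41180077), which encodes the acetyltransferase p300, rose from 2.69, 5.28 and 5.07 FPKM to 9.25, 9.99 and 8.59 FPKM, with 8.46, 9.33 and 8.73 FPKM in control. The groups did not overlap and the rescue and control ranges overlapped. Its difference was 0.98 (SE 0.18, limma adjusted p = 0.00233), or 0.73 without MYB_KnockDown replicate 1. That of CREBBP, which encodes the related CBP, was 1.17 (limma adjusted p = 0.0204). SENP2, a SUMO protease, rose from 19.2, 29.3 and 34.8 FPKM to 53.5, 67.3 and 57.7 FPKM (1.11, SE 0.19, limma adjusted p = 0.00161). FBXW7, the ubiquitin ligase subunit that marks MYB and MYC for breakdown, had 6.72, 7.72 and 8.14 FPKM in knockdown and 12.4, 13.8 and 13.5 FPKM in rescue (0.74, limma adjusted p = 0.00192). MYBBP1A, a nucleolar MYB-binding protein, had 36.7, 37.5 and 34.7 FPKM in knockdown and 59.5, 56.7 and 48.7 FPKM in rescue (0.58, limma adjusted p = 0.0022). In EP300, SENP2, FBXW7 and MYBBP1A the groups did not overlap. Without MYB-WT_Rescue replicate 2, 7 genes of the list were higher, and 1600 of all 12376 genes then tested. KMT2A, PIAS4, HIPK2 and SENP1 were also higher, at 0.73 to 0.99, and the lower ones were PIM1 at -0.51 and SUMO2 at -0.33. These genes have long transcripts (median 4558 bases against 2864 for all tested genes), a property that moved with the difference, as given further on. Of the tested genes with transcripts of 3501 to 5243 bases, 29.6% were higher and 8.07% lower. The shares of the list are thus near those of genes this long.

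Hematopoietic transcription factors split evenly with all libraries. Of 28 tested, 7 were higher and 7 lower, and the median was 0.20. Leaving out MYB_KnockDown replicate 1 gave 7 higher and 10 lower, with a median of 0.14. ZFPM1, the GATA1 cofactor FOG1, rose from 2.28, 3.83 and 4.48 FPKM to 7.12, 14.3 and 8.74 FPKM (1.27, SE 0.24, limma adjusted p = 0.00228). LDB1 at 1.20, the partner that LMO2 joins to the GATA1 complex, RUNX1 at 0.85, KLF3 at 0.80, ETV6 at 0.71 and IKZF1 at 0.64 were also higher on the log2 scale. HHEX, a homeodomain repressor, fell from 82.6, 86.7 and 72.5 FPKM to 45.4, 38.1 and 44.3 FPKM (-0.91, SE 0.13, limma adjusted p = 0.000615), below its control values of 65.7, 60.4 and 53.1 FPKM. SPI1 at -0.98, LYL1 at -0.72, LMO4 at -0.55 and HOXB4 at -0.37 fell as well.

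Of the core erythroid factors GATA1, TAL1, GATA2 and KLF1, GATA1 was the one called. GATA1 (chrX:48786590-48794311), the main erythroid activator, had 122, 117 and 135 FPKM in knockdown and 87.1, 80.8 and 105 FPKM in rescue, with 109, 100.3 and 135 FPKM in control. Its call was weak (-0.46, SE 0.14, limma adjusted p = 0.0282) and was lost without MYB-WT_Rescue replicate 1 or 2, without MYB_KnockDown replicate 3 and under 5 other settings. TAL1 had 41.3, 56.4 and 57.5 FPKM in knockdown and 38.9, 43.2 and 37.5 FPKM in rescue. It was not called with all libraries (-0.35, limma adjusted p = 0.0539) but was lower without MYB_KnockDown replicate 1 (-0.51, limma adjusted p = 0.000533). GATA2, the factor that precedes GATA1 in progenitors, had 53.1, 49.3 and 42.5 FPKM in knockdown and 59.4, 53.7 and 52.3 FPKM in rescue (0.19, SE 0.13, limma adjusted p = 0.271), and its groups overlapped. KLF1, an activator of adult globin, had 74.8, 34.8 and 42.2 FPKM in knockdown and 45.8, 40.1 and 49 FPKM in rescue (-0.10, SE 0.23, limma adjusted p = 0.753). The sign of that KLF1 value turned to 0.22 without MYB_KnockDown replicate 1 (limma adjusted p = 0.166).

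In the pathway of KIT, the EPO receptor and the STAT factors, 5 of 23 tested genes were higher and 3 lower. SOS1, the exchange factor that links receptors to RAS, rose from 5.0, 9.45 and 8.91 FPKM to 35.7, 35.9 and 22.7 FPKM (1.90, SE 0.23, limma adjusted p = 0.00019), above its control values of 18.4, 15.8 and 14.7 FPKM. STAT3 at 0.41 was higher beside STAT5A and KIT. The inhibitors PTPN6, a phosphatase, at -1.69 and SOCS1, a feedback inhibitor of JAK signalling, at -1.44 were lower, as was PIM1. PTPN6 was low in every library, at 6.03, 2.04 and 2.07 FPKM in knockdown and 0.507, 0.0994 and 0.18 FPKM in rescue, and did not reach the filter without MYB_KnockDown replicate 1. Without that library 6 genes of the pathway were higher and 1 was lower. The counts were 3 higher and 1 lower without MYB-WT_Rescue replicate 1, 3 higher without MYB-WT_Rescue replicate 3, 9 higher without MYB_KnockDown replicate 3 and none lower without MYB_KnockDown replicate 2.

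Surface genes of stem and progenitor cells gave 3 higher and 1 lower of 6 tested. ITGA4, the α4 integrin chain, had 0.146, 0.333 and 0.229 FPKM in knockdown and 2.67, 4.88 and 6.65 FPKM in wild-type rescue (2.15, SE 0.22, limma adjusted p = 8.39e-05). ITGA4 reached the filter only through the rescue libraries, and with no filter on low values its adjusted p by limma was 0.000302. It had 0.148, 0.137 and 0.421 FPKM in control, so no library of the 3xTY1 line reached 1 FPKM, and rescue minus control was 2.16 (limma adjusted p = 0.000158). CD33, a myeloid lectin, fell from 20.8, 26.8 and 22.3 FPKM to 11.2, 11.6 and 11.8 FPKM, below its control values of 20.7, 23.2 and 16.3 FPKM (-0.95, SE 0.15, limma adjusted p = 0.000804).

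Of 8 tested globin genes, 5 were lower and none was higher, and the median was -1.64, or -0.91 without MYB_KnockDown replicate 1, when 4 were lower and 1 higher. Without MYB-WT_Rescue replicate 1 or 2, 2 were lower. HBE1 (chr11:5268345-5269945), embryonic ε-globin, stood at 3299.8, 815 and 2031 FPKM in knockdown and 47, 43.1 and 72.6 FPKM in rescue. Its control values were 899.5, 509 and 1219.9 FPKM, so rescue lay far below both groups of the other line. Rescue minus knockdown was -5.03 (SE 0.53, limma adjusted p = 8.73e-05) and rescue minus control was -3.94 (limma adjusted p = 0.000909). Because these are bulk libraries, fewer globin-making cells and less globin RNA per cell cannot be told apart.

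HBD, δ-globin, fell from 31.8, 12.1 and 30.2 FPKM to 3.18, 4.52 and 8.45 FPKM (-1.98, SE 0.54, limma adjusted p = 0.0146). HBQ1, θ-globin, fell from 91.9, 22.1 and 27.8 FPKM to 11.5, 8.48 and 13.2 FPKM (-1.73, SE 0.41, limma adjusted p = 0.00735). The HBD call was lost without MYB-WT_Rescue replicate 1 (-1.72, limma adjusted p = 0.0587) or 2 (-1.92, limma adjusted p = 0.0518). The HBQ1 difference was -1.12 without MYB_KnockDown replicate 1 (limma adjusted p = 0.000729), and its call was lost in a fit of only the 6 libraries compared (limma adjusted p = 0.0617). For both genes rescue minus control was not called, at -1.38 (limma adjusted p = 0.142) for HBD and -0.99 (limma adjusted p = 0.162) for HBQ1.

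Fetal γ-globin was less clear. HBG1 had 102, 21.8 and 41.8 FPKM in knockdown and 14, 14.3 and 23.8 FPKM in rescue, and the groups overlapped. Its call (-1.38, SE 0.47, limma adjusted p = 0.0367) was lost without MYB_KnockDown replicate 1 (-0.81, limma adjusted p = 0.0783), without any 1 of MYB_KnockDown replicate 3, MYB-WT_Rescue replicates 1 and 2 and D152V_Rescue replicate 1 (limma adjusted p = 0.0508 to 0.112) and under other settings. HBG2 had 661, 84.1 and 146 FPKM in knockdown and 50.01, 59.9 and 96.4 FPKM in rescue and was not called (-1.59, SE 0.60, limma adjusted p = 0.0544). It was called under 6 of 30 settings, among them without MYB_KnockDown replicate 2 (-2.22, limma adjusted p = 0.0101) or 3 (-1.82, limma adjusted p = 0.0491), while without MYB_KnockDown replicate 1 it was at -0.74 (limma adjusted p = 0.101). The HBG1 and HBG2 transcripts are near-identical copies, as are HBA1 and HBA2, and the division of reads within each pair is uncertain. HBZ, embryonic ζ-globin, ranged widely within both groups, from 1329.9, 428 and 1627 FPKM in knockdown to 564, 338 and 1187 FPKM in rescue, and was not called (-0.68, SE 0.55, limma adjusted p = 0.347).

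Red cell membrane and maturation genes gave 9 lower and 4 higher of 27 tested, with a median of 0.00. Leaving out MYB_KnockDown replicate 1 gave 12 lower and 4 higher, with a median of 0.05. The higher count was 2, 1 and 1 without MYB-WT_Rescue replicate 1, 2 and 3 and 7 without MYB_KnockDown replicate 3. GYPB, a red cell glycophorin, fell from 371, 209.5 and 398 FPKM to 70.2, 48.2 and 84.7 FPKM, with 189.9, 92.5 and 203 FPKM in control (-2.23, SE 0.35, limma adjusted p = 0.00092). Its relative GYPE fell from 91, 50.4 and 76.2 FPKM to 15.6, 15.8 and 11.8 FPKM (-2.23, SE 0.21, limma adjusted p = 5.33e-05). GYPB and GYPE are close paralogs, so reads may have been shared between them. RHCE at -2.11, RHAG at -0.70 and ICAM4 at -0.90, which encode blood group proteins, and the peroxiredoxin gene PRDX2 at -0.85 were lower too. On the other side TRIM58 at 1.23, a ubiquitin ligase of late erythroblasts, SLC4A1 at 0.85, the band 3 anion exchanger, ERMAP at 0.75 and ANK1 at 0.60, the ankyrin that anchors band 3, were higher. HEMGN, a nuclear protein of erythroid cells, had 56.6, 47.2 and 79.2 FPKM in knockdown and 61.4, 67.6 and 78.9 FPKM in rescue, both below the 153, 106 and 144 FPKM of control, and rescue minus knockdown was not called (0.21, SE 0.20, limma adjusted p = 0.438).

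Among 23 heme synthesis and iron genes, 5 were higher and 2 lower, with 4 lower without MYB_KnockDown replicate 1 or 2. The higher share of 21.7% was near the 21.6% of all genes, and the lower share was 8.70% against 17.4%. The 2 lower genes encode heme enzymes. ALAS2 (chrX:55009055-55030977), the erythroid first enzyme of heme synthesis, fell from 103, 62.1 and 92.3 FPKM to 32.1, 48.3 and 42.9 FPKM, with 53.4, 54.9 and 66.1 FPKM in control (-1.03, SE 0.22, limma adjusted p = 0.00414). PPOX, protoporphyrinogen oxidase, fell from 59.2, 24.8 and 24.8 FPKM to 10.9, 9.14 and 8.32 FPKM (-1.72, SE 0.27, limma adjusted p = 0.000938). It was at -1.31 without MYB_KnockDown replicate 1. The 5 higher genes all take part in iron uptake or export. SLC40A1 (chr2:189560590-189580786), the iron exporter ferroportin, rose from 3.25, 9.87 and 18 FPKM to 55.4, 48.1 and 59.4 FPKM, with 28.7, 24.1 and 32.7 FPKM in control. The groups did not overlap (2.53, SE 0.41, limma adjusted p = 0.0011). TFRC, the transferrin receptor, rose from 56.1, 119 and 197 FPKM to 283, 279.8 and 384 FPKM (1.5, SE 0.40, limma adjusted p = 0.0126), with a wide spread in both groups. Without MYB_KnockDown replicate 1 the SLC40A1 and TFRC differences were 1.94 and 1.02. TFR2 at 0.76, the reductase gene STEAP3 at 0.70 and the iron transporter SLC11A2 at 0.52 were the others.

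**Figure D2:**
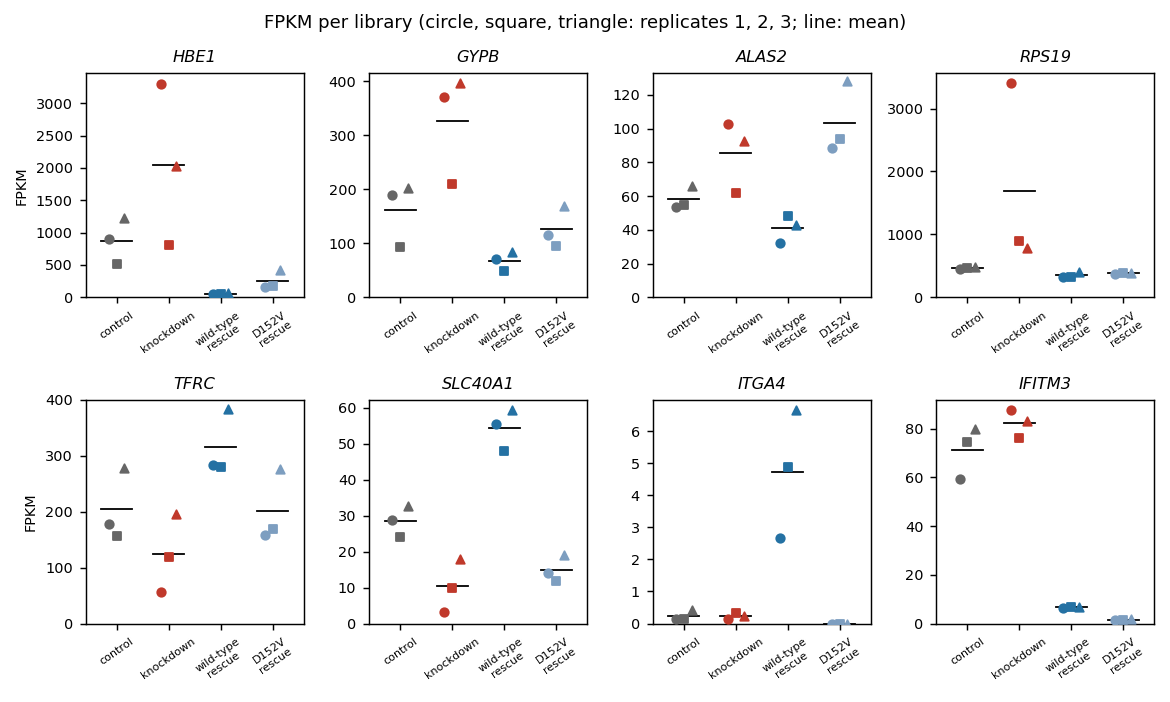
FPKM in each of the 12 libraries for erythroid, iron, ribosomal and surface genes, with circle, square and triangle for replicates 1, 2 and 3 and a line at the group mean. HBE1, GYPB, ALAS2, RPS19 and IFITM3 are lower in every wild-type rescue library than in every knockdown library, TFRC, SLC40A1 and ITGA4 are higher, and knockdown replicate 1 stands far above its replicates for RPS19.

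The largest increases, among called genes with separated groups and a mean of at least 5 FPKM, were mostly genes that stayed low in the 3xTY1 line with either siRNA. C12orf75 (chr12:105330691-105371518) had 0, 0.219 and 0 FPKM in knockdown and 20.6, 18.1 and 27.6 FPKM in rescue (4.41, SE 0.27, limma adjusted p = 3.03e-06). Its control values were 0.108, 0.435 and 0.109 FPKM, so it was near 0 in the 3xTY1 line with either siRNA. EPB41L3 (chr18:5392386-5630663), a membrane skeleton protein of the band 4.1 family, had 0, 0.0767 and 0.385 FPKM in knockdown, 14.4, 17.7 and 14.4 FPKM in rescue and 0.119, 0.322 and 0.223 FPKM in control (3.85, SE 0.15, limma adjusted p = 6.24e-08). CASP4 (chr11:104942866-104968574), an inflammatory caspase, had 0.0186, 0.264 and 0.589 FPKM in knockdown, 11.5, 13.9 and 21.9 FPKM in rescue and 0.506, 0.643 and 0.786 FPKM in control (3.68, SE 0.44, limma adjusted p = 0.00019). All 3 genes reached the filter only through the rescue libraries. With no filter on low values their adjusted p by limma was 2.51e-05 for C12orf75, 7.67e-07 for EPB41L3 and 0.000893 for CASP4.

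CPVL, a serine carboxypeptidase, had 1.39, 1.03 and 1.35 FPKM in knockdown and 23.7, 20.2 and 21.5 FPKM in rescue (3.34, SE 0.14, limma adjusted p = 1.05e-07). CDH18, a cadherin, had 0.536, 1.9 and 1.85 FPKM in knockdown and 18.3, 22.6 and 27 FPKM in rescue (3.32, SE 0.25, limma adjusted p = 1.09e-05). MUC19, a gel-forming mucin, had 4.71, 1.79 and 3.81 FPKM in knockdown and 39.7, 31.5 and 49 FPKM in rescue (3.25, SE 0.33, limma adjusted p = 7.41e-05). For these 3 genes the control libraries overlapped the knockdown libraries and lay below every rescue library, at 1.16, 1.41 and 0.863 FPKM for CPVL, 1.9, 2.85 and 1.69 FPKM for CDH18 and 3.3, 1.02 and 2.48 FPKM for MUC19. Rescue minus control was 3.42, 2.91 and 3.70, with limma adjusted p-values of 1.61e-07, 4.21e-05 and 5.44e-05.

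SLC16A9, a monocarboxylate transporter, ENPP3, a cell-surface nucleotide phosphodiesterase, and LCP2, the adaptor SLP-76, differed in that the knockdown mean lay below that of control and the rescue mean above it. Knockdown minus control was called for ENPP3 (-1.57, limma adjusted p = 0.0014). It was not called for SLC16A9 (-0.58, limma adjusted p = 0.0689) or LCP2 (-0.59, limma adjusted p = 0.148). SLC16A9 had 3.04, 3.34 and 2.32 FPKM in control, 1.29, 2.02 and 1.52 FPKM in knockdown and 18.3, 23.6 and 14.6 FPKM in rescue (2.91, SE 0.19, limma adjusted p = 5.31e-06). ENPP3 had 9.86, 10.9 and 10.05 FPKM in control, 2.67, 3.22 and 2.56 FPKM in knockdown and 24.5, 22.3 and 30.6 FPKM in rescue (2.80, SE 0.18, limma adjusted p = 4.37e-06). LCP2 had 5.86, 8.58 and 8.7 FPKM in control, 3.08, 5.31 and 6.25 FPKM in knockdown and 30.6, 48.6 and 30.6 FPKM in rescue (2.68, SE 0.27, limma adjusted p = 6.56e-05), and its control and knockdown libraries overlapped. For SLC16A9 and ENPP3 the 3 groups did not overlap with each other. CFAP298-TCP10L, a readthrough locus that overlaps CFAP298 and TCP10L, was the remaining gene, with 0.779, 2.16 and 9.47 FPKM in knockdown, 32.5, 48.2 and 36.2 FPKM in rescue and 24.1, 30.6 and 25.1 FPKM in control (3.34, SE 0.48, limma adjusted p = 0.000527). It was at 2.78 without MYB_KnockDown replicate 1. Its reads cannot be told apart from those of the genes it overlaps, so the value is uncertain.

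The largest decrease after HBE1 was ALDH1A1 (chr9:72900671-72953053), a retinaldehyde dehydrogenase. It had 46, 65.8 and 67.6 FPKM in knockdown, 5.77, 3.06 and 2.77 FPKM in rescue and 61.1, 81.9 and 68.8 FPKM in control (-3.67, SE 0.23, limma adjusted p = 3.92e-06). SCG3, a secretory granule protein, had 57.9, 55.2 and 76.2 FPKM in knockdown, 8.1, 7.29 and 8.28 FPKM in rescue and 47.1, 45.4 and 58.1 FPKM in control (-2.84, SE 0.14, limma adjusted p = 4.4e-07). PTPRC, the leukocyte phosphatase CD45, had 7.15, 23.8 and 36.4 FPKM in knockdown, 2.08, 2.35 and 2.51 FPKM in rescue and 19.3, 22.9 and 34.3 FPKM in control (-2.57, SE 0.45, limma adjusted p = 0.00164). In all 3 genes both groups of the 3xTY1 line were high and the rescue line was low, and rescue minus control was called at -3.92, -2.52 and -2.96 (limma adjusted p = 3.59e-06, 2.84e-06 and 0.00189).

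VGF, AIF1, SNCG and NNMT showed another order, with the knockdown mean above that of control and the rescue mean below it. VGF, a granin-like neuropeptide precursor, had 6.54, 8.77 and 2.4 FPKM in control, 35.9, 35 and 7.36 FPKM in knockdown and 2.1, 1.92 and 1.23 FPKM in rescue (-3.04, SE 0.55, limma adjusted p = 0.00198). Replicate 3 was the lowest library in each of these groups, and control and knockdown overlapped. For VGF neither knockdown minus control (limma adjusted p = 0.0523) nor rescue minus control (-1.21, limma adjusted p = 0.213) was called. AIF1, a calcium-binding protein of macrophages, had 3.32, 4.25 and 3.36 FPKM in control, 21.1, 7.64 and 10.1 FPKM in knockdown and 0.674, 0.72 and 1.26 FPKM in rescue (-2.78, SE 0.29, limma adjusted p = 7.87e-05). SNCG, γ-synuclein, had 24, 20.7 and 32.4 FPKM in control, 139, 39.7 and 53.1 FPKM in knockdown and 9.34, 7.84 and 12 FPKM in rescue (-2.67, SE 0.37, limma adjusted p = 0.000481). It was at -2.15 without MYB_KnockDown replicate 1. NNMT, nicotinamide N-methyltransferase, had 1.79, 2.98 and 3.92 FPKM in control, 13.2, 7.8 and 10.1 FPKM in knockdown and 0.425, 1.48 and 0.568 FPKM in rescue (-2.66, SE 0.31, limma adjusted p = 0.000171). TMEM132D-AS1, an antisense RNA, had 399.9, 126 and 132 FPKM in knockdown and 24.8, 22.9 and 25.7 FPKM in rescue (-2.90, SE 0.34, limma adjusted p = 0.000171). It was at -2.36 without MYB_KnockDown replicate 1. The sources used here do not say how strand entered the counting, so its reads may include those of TMEM132D.

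**Figure D3:**
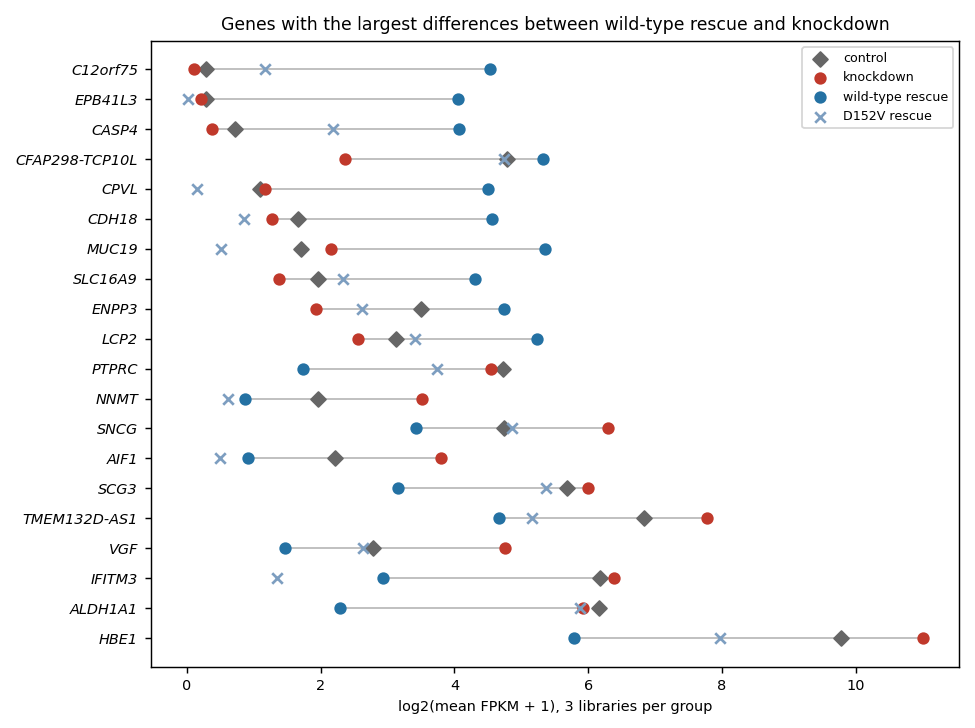
Group means of the 10 largest increases and 10 largest decreases in wild-type rescue against knockdown, on the log2(mean FPKM + 1) scale, with grey lines from knockdown to wild-type rescue. For C12orf75, EPB41L3 and CPVL the control diamond lies beside the knockdown circle, while for CFAP298-TCP10L it lies near the rescue circle.

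Interferon-induced genes moved in both directions, with 8 lower and 5 higher of 22 tested. These were 36.4% and 22.7%, against 17.4% and 21.6% of all genes. IFITM3 (chr11:319676-320860), a membrane protein that blocks virus entry, had 87.6, 76.1 and 83.3 FPKM in knockdown, 6.28, 6.92 and 6.71 FPKM in rescue and 59.4, 74.3 and 79.7 FPKM in control (-3.45, SE 0.13, limma adjusted p = 5.28e-08). Its neighbour IFITM1 fell from 301, 291 and 248 FPKM to 92.8, 74.6 and 102 FPKM (-1.64, SE 0.14, limma adjusted p = 2.34e-05) and IFITM2 was at -2.43. B2M, the light chain of MHC class I, fell from 1395, 942 and 948 FPKM to 390.1, 393 and 446 FPKM, below its control values of 738, 894 and 877 FPKM (-1.39, SE 0.19, limma adjusted p = 0.000366). ISG15, BST2, PSMB8 and IRF7 were lower as well, from -1.14 to -0.73. The RNA sensors IFIH1 at 1.03 and EIF2AK2 at 1.24, the DNA sensor IFI16 at 1.06 and the peptide transporter TAP1 at 0.70 were among the higher genes. Without MYB-WT_Rescue replicate 2, 5 genes of the list were lower. Leaving out MYB_KnockDown replicate 1 gave 6 lower and 6 higher of 21 tested.

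Cytosolic ribosomal protein genes were mostly lower in rescue. All 79 were tested, 57 were lower and none was higher, and the median was -1.23. Without MYB_KnockDown replicate 1 the median was -0.82, with 64 lower and 2 higher. RPL39 fell from 2824, 2886 and 2260.1 FPKM to 834, 742 and 919.9 FPKM, with 1122, 1222 and 1252 FPKM in control (-1.67, SE 0.16, limma adjusted p = 5.8e-05). RPL4 fell from 4793, 4219 and 4188 FPKM to 1269, 1217 and 1595 FPKM, with 2512, 2714 and 3226 FPKM in control (-1.70, SE 0.19, limma adjusted p = 0.000117). RPL10 fell from 3089, 3056 and 2543 FPKM to 1058, 774 and 982 FPKM, with 1775, 1992 and 1950.0 FPKM in control (-1.63, SE 0.17, limma adjusted p = 8.39e-05).

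In these 3 genes all knockdown libraries lay above and all rescue libraries below the control range. RPS19, the subunit gene linked to Diamond-Blackfan anemia, had 3409, 889 and 782 FPKM in knockdown and 327, 326 and 396 FPKM in rescue (-1.94, SE 0.42, limma adjusted p = 0.00492). That value was -1.26 without MYB_KnockDown replicate 1 (limma adjusted p = 5.92e-06). The share of the FPKM total in ribosomal protein genes was 23.1%, 16.9% and 16.1% in the knockdown libraries and 10.2% to 14.2% in the 9 others. Many processed pseudogenes resemble these genes, and reads may have been split with them.

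Genes of the mitochondrion followed. Of 63 nuclear-encoded respiratory chain genes, 50 were lower and none was higher, with a median of -0.95, or -0.57 without MYB_KnockDown replicate 1. ATP5ME, a subunit of ATP synthase, fell from 1248, 628 and 679.8 FPKM to 237, 199.7 and 262 FPKM, with 327, 346 and 387 FPKM in control (-1.80, SE 0.23, limma adjusted p = 0.000253). NDUFB8, of complex I, fell from 202, 119 and 123 FPKM to 54, 39.2 and 54.9 FPKM (-1.54, SE 0.19, limma adjusted p = 0.000266). NDUFV2, of the same complex, fell from 366, 281 and 311 FPKM to 160.2, 145 and 174 FPKM (-0.99, SE 0.12, limma adjusted p = 0.000266). Mitochondrial ribosomal protein genes gave 17 lower and 2 higher of 55, with a median of -0.64, or -0.24 without MYB_KnockDown replicate 1. These were 30.9% and 3.64%, against 33.3% and 7.78% of the tested genes with transcripts of 75 to 1398 bases. The lower share is thus near that of genes this short. The lower count was 9 to 11 with a rescue library left out, 26, 34 and 32 without MYB_KnockDown replicates 1, 2 and 3, and 7 were higher without MYB_KnockDown replicate 1. The 3 with the smallest adjusted p were MRPS23, from 78.9, 76 and 71.9 FPKM to 33.8, 30.8 and 39.9 FPKM, MRPL13, from 90.5, 80.4 and 76.4 FPKM to 43.1, 40.6 and 47.2 FPKM, and MRPL33, from 174, 171 and 184 FPKM to 103, 87.7 and 122 FPKM, at -1.10, -0.90 and -0.76 on the log2 scale.

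Replication-dependent histone genes gave 10 lower and none higher of 28 tested, with a median of -0.65. The lower share of 35.7% is near the 33.3% of the tested genes with transcripts of 75 to 1398 bases. Leaving out MYB_KnockDown replicate 1 gave 13 lower of 26 tested, with a median of -0.49. H1-2, a linker histone, fell from 768, 213 and 316 FPKM to 81.1, 108 and 121 FPKM, with 101, 92.6 and 141 FPKM in control (-1.86, SE 0.40, limma adjusted p = 0.00492). It was at -1.34 without MYB_KnockDown replicate 1. H2BC12 fell from 718, 528 and 705 FPKM to 349.6, 349 and 425 FPKM (-0.79, SE 0.18, limma adjusted p = 0.00719), and H2AC25 from 10.3, 7.79 and 9.31 FPKM to 3.02, 5.83 and 4.71 FPKM (-0.90, SE 0.19, limma adjusted p = 0.00405). Most transcripts of this family end without a poly(A) tail, and the libraries were made by poly(A) selection. Without MYB-WT_Rescue replicate 1 or 2, 3 genes were lower.

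Transcript length moved with the whole comparison. Split by the length of the canonical GENCODE transcript into quintiles, the genes of 75 to 1398 bases had a median log2 difference of -0.46, and 33.3% of them were lower in rescue and 7.78% higher. The genes of 5244 to 34626 bases had a median of 0.38, with 6.50% lower and 39.5% higher, and the quintiles between them stepped from -0.20 through 0.06 to 0.22. Without MYB_KnockDown replicate 1 the medians ran from -0.22 to 0.24. Relative to the control mean, the shortest quintile stood at 0.87, 0.13 and 0.14 in knockdown replicates 1, 2 and 3 and at -0.12, -0.13 and -0.06 in the rescue replicates. The groups thus stood on opposite sides of control in both the shortest and the longest quintile.

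Median lengths were 785 bases for ribosomal protein genes, 763 for respiratory chain genes, 1218 for mitochondrial ribosomal protein genes, 486 for histone genes and 586.5 for globin genes, against 2863.5 for all tested genes with a length. After the length trend of each library was removed, an adjustment added after the data had been seen, the counts lower in rescue were 53 for ribosomal protein genes, 39 for respiratory chain genes, 12 for mitochondrial ribosomal protein genes, 2 for histone genes and 4 for globin genes. Of these 5 counts that of the histone genes changed by the largest factor. Over all genes, 2253 were then higher and 2200 lower. Of the 109 named genes that were called, 11 were then not called. They were MRPL33, H2BC12, H2AC25, WDR12, SLC7A11, SLC7A1, EPRS1, MYH9, CD9, GATA1 and HBG1.

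**Figure D4:**
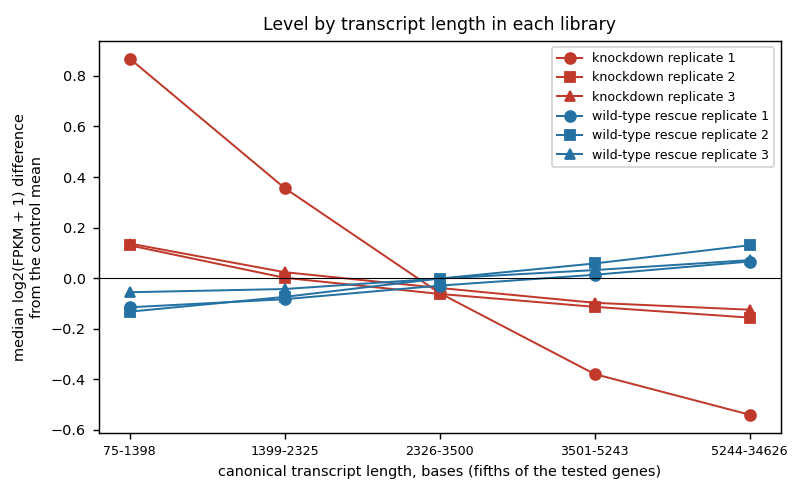
Median log2(FPKM + 1) difference from the control mean for the tested genes in quintiles of canonical transcript length, 1 line per library. Knockdown replicate 1 runs from 0.87 in the shortest quintile to -0.54 in the longest, knockdown replicates 2 and 3 run the same way over a smaller range, and the 3 wild-type rescue libraries run the opposite way.

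In the network of MYC and its partner MAX 4 of 12 tested genes were higher and 1 lower, with a median of 0.18. Leaving out MYB_KnockDown replicate 1 gave 4 higher and 2 lower, with a median of 0.03. MLXIP, the glucose-responsive partner MondoA, rose from 9.25, 13.2 and 14.8 FPKM to 41.6, 46.5 and 34.1 FPKM, above its control values of 26.2, 25.4 and 25.1 FPKM (1.65, SE 0.17, limma adjusted p = 7.41e-05). MXD1, a MAX partner that opposes MYC, rose from 4.31, 6.56 and 6.96 FPKM to 11.6, 10.2 and 9.78 FPKM (0.75, SE 0.16, limma adjusted p = 0.0042), while its paralog MXD3 was at -0.71.

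Nucleolar and MYC-responsive genes gave 10 higher and 3 lower of 32, and 17 higher and 4 lower without MYB_KnockDown replicate 1. The lowest counts were 3 higher and none lower, without MYB-WT_Rescue replicate 2, and 6 were higher without MYB-WT_Rescue replicate 1, MYB-WT_Rescue replicate 3 or siRNA_Control replicate 1. WDR12, of the complex that matures the large ribosomal subunit, had 129.5, 65.3 and 81.8 FPKM in knockdown and 163, 204 and 170.4 FPKM in rescue (1.00, SE 0.21, limma adjusted p = 0.00373). UTP20, of the small subunit processome, rose from 6.12, 14 and 13.1 FPKM to 20.9, 23.5 and 22.9 FPKM (1.03, SE 0.23, limma adjusted p = 0.00597), or by 0.68 without MYB_KnockDown replicate 1. WDR43 rose from 74.6, 62.8 and 59.8 FPKM to 89.3, 116 and 96.4 FPKM (0.61, SE 0.14, limma adjusted p = 0.00639). The helicase DDX21 at 0.85 and nucleolin, NCL, at 0.65 were higher, whereas FBL, the rRNA methyltransferase fibrillarin, at -1.14 and NME1 at -1.20 were lower.

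Translation factors gave 4 higher and 9 lower of 34, and 9 higher and 10 lower without MYB_KnockDown replicate 1. With 1 rescue library left out 3 to 5 were lower, and 2 were higher without MYB-WT_Rescue replicate 2. EIF4G2, an initiation scaffold, rose from 340.4, 466 and 638 FPKM to 1017, 1283 and 1345 FPKM (1.37, SE 0.23, limma adjusted p = 0.0012). EIF3A, the largest subunit of eIF3, rose from 56.4, 89.7 and 89.4 FPKM to 144, 193 and 148 FPKM (1.05, SE 0.19, limma adjusted p = 0.0019). EIF6, which keeps ribosomal subunits apart, fell from 135, 127 and 108 FPKM to 49.8, 51 and 56.4 FPKM (-1.21, SE 0.13, limma adjusted p = 8.14e-05). Of 20 aminoacyl-tRNA synthetase genes 4 were higher and 3 lower, among them EPRS1 at 0.51, YARS1 at 0.44, whose call was lost without MYB-WT_Rescue replicate 2 (limma adjusted p = 0.0594), and QARS1 at -0.61. Without MYB_KnockDown replicate 1, 8 synthetase genes were higher, without MYB-WT_Rescue replicate 2 1 was higher and 1 lower, and without MYB-WT_Rescue replicate 1 1 was lower.

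Of the G1 cyclins, CDKs and CDK inhibitors 6 of 18 were lower and 2 higher, and 7 were lower and 3 higher without MYB_KnockDown replicate 1. CDK4, the partner of D cyclins beside CDK6, fell from 157, 113 and 112 FPKM to 64.5, 64.4 and 64 FPKM, with 81.4, 86.4 and 98.8 FPKM in control (-0.96, SE 0.14, limma adjusted p = 0.000532), the opposite direction to CDK6. CDKN2C, the inhibitor p18, fell from 96.5, 51.6 and 66.3 FPKM to 34.7, 33.6 and 35.8 FPKM (-0.98, SE 0.18, limma adjusted p = 0.00202). RB1 was higher at 0.96, and E2F1 and E2F2 were lower at -0.63 and -1.01. CDKN1A, the inhibitor p21, had 3.34, 3.03 and 4.26 FPKM in knockdown and 3.86, 5.13 and 6.06 FPKM in rescue and was not called (0.40, SE 0.21, limma adjusted p = 0.152). CCND2, cyclin D2, had 8.12, 10.8 and 8.96 FPKM in knockdown and 12.4, 10.02 and 7.79 FPKM in rescue (0.09, SE 0.17, limma adjusted p = 0.675), with overlapping groups and a sign that varied with the processing.

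Of 36 DNA replication genes 10 were lower (5 without MYB-WT_Rescue replicate 1 and 6 without MYB-WT_Rescue replicate 2) and 1 higher, with a median of -0.24. Leaving out MYB_KnockDown replicate 1 gave 13 lower and 1 higher, with a median of -0.14. TK1, thymidine kinase, fell from 118, 77.7 and 72.8 FPKM to 26.4, 27.4 and 29.2 FPKM, below its control values of 53, 56.2 and 60.7 FPKM (-1.63, SE 0.16, limma adjusted p = 6.44e-05). The helicase subunits MCM5, from 114, 103 and 88.1 FPKM to 62.8, 66.6 and 63.4 FPKM, and MCM7, from 339.98, 243 and 216 FPKM to 155, 151 and 148 FPKM, were at -0.65 and -0.79 on the log2 scale. Their sister subunit MCM4 was the 1 higher gene, at 0.40. Mitosis genes gave 6 higher and 5 lower of 30, with 3 lower without MYB-WT_Rescue replicate 1 or 2 and 8 lower without MYB_KnockDown replicate 2. CENPF, a kinetochore protein, rose from 15.5, 14.8 and 17 FPKM to 28.8, 29.7 and 32 FPKM (0.89, SE 0.12, limma adjusted p = 0.000379), and the centrosome kinase gene NEK2 rose from 57, 45 and 57.8 FPKM to 85.8, 88 and 102 FPKM (0.78, SE 0.15, limma adjusted p = 0.00255). CCNB2, cyclin B2, fell from 128, 68.6 and 93.3 FPKM to 42.6, 38.6 and 51 FPKM (-1.08, SE 0.22, limma adjusted p = 0.00344).

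In the BCL2 family and caspases 7 of 22 tested genes were higher and 5 lower, against 3 and 3 without MYB-WT_Rescue replicate 2. Leaving out MYB_KnockDown replicate 1 gave 8 higher and 6 lower of 21 tested. BCL2, a classic MYB target, did not reach the filter in these cells. BAD, a pro-death member, fell from 14.6, 8.57 and 10.4 FPKM to 2.87, 2.51 and 4.09 FPKM, with 4.02, 4.14 and 5.15 FPKM in control (-1.54, SE 0.20, limma adjusted p = 0.000273). CASP2, a caspase that responds to DNA damage, rose from 20.8, 32.5 and 29.9 FPKM to 49, 61.7 and 43.4 FPKM (0.88, SE 0.17, limma adjusted p = 0.00312). BCL2A1, an anti-death member, had 2.02, 1.04 and 1.5 FPKM in knockdown, 0.108, 0 and 0.0871 FPKM in rescue and 0.0811, 0.333 and 0.231 FPKM in control (-1.23, SE 0.16, limma adjusted p = 0.000278). It reached the filter only through the knockdown libraries and fell short of it without MYB_KnockDown replicate 1, and with no filter its adjusted p by limma was 0.00049. CASP8, APAF1, BCL2L11, PMAIP1 and BIRC2 were higher, at 0.52 to 0.74, and BAX at -0.62, BIRC5 at -0.80 and CASP9 at -0.45 were lower.

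The heat shock and chaperone genes that were called were all higher. Of 22 tested, 8 were higher with all libraries and 16 without MYB_KnockDown replicate 1, with medians of 0.23 and 0.35. The count was 3 without MYB-WT_Rescue replicate 1 and 4 without MYB-WT_Rescue replicate 3 or MYB_KnockDown replicate 2. DNAJB4, a cochaperone of HSP70, rose from 19.8, 26.5 and 30.7 FPKM to 83.3, 78 and 89.3 FPKM, above its control values of 41.5, 32.9 and 38.7 FPKM (1.68, SE 0.16, limma adjusted p = 4.3e-05). DNAJA1 rose from 295, 212 and 227 FPKM to 408, 461 and 420.4 FPKM, also above control at 244, 253 and 249.6 FPKM (0.82, SE 0.13, limma adjusted p = 0.00101). BAG3, a nucleotide exchange factor for HSP70, rose from 19.9, 21.9 and 28.1 FPKM to 48.1, 36.3 and 41.9 FPKM (0.83, SE 0.15, limma adjusted p = 0.00171).

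Of 27 genes of the ATF4 and unfolded protein responses 5 were higher and 2 lower, with SLC7A11, the cystine transporter, from 1.41, 2.04 and 2.59 FPKM to 4.35, 3.85 and 4.13 FPKM (0.78, limma adjusted p = 0.00407). DNAJB9 was at 0.60 and SLC7A1 at 0.70. The lower count was 5 without MYB_KnockDown replicate 1, 4 without MYB-WT_Rescue replicate 3 or MYB_KnockDown replicate 3 and 1 without MYB-WT_Rescue replicate 1 or 2. Cholesterol synthesis genes gave 9 lower and 1 higher of 26, with a median of -0.48, or -0.43 without MYB_KnockDown replicate 1. NSDHL, a sterol dehydrogenase, fell from 29.5, 24.4 and 27.9 FPKM to 13.8, 11 and 16.6 FPKM (-0.95, SE 0.17, limma adjusted p = 0.00188), TM7SF2 from 18, 8.63 and 9.05 FPKM to 3.49, 2.58 and 3.27 FPKM, and EBP from 386, 119.6 and 121 FPKM to 47.1, 50.7 and 51.1 FPKM. Without MYB-WT_Rescue replicate 1 or 2, 3 genes of the list were lower.

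Glycolysis and hypoxia genes gave 7 lower and 2 higher of 26, with 5 higher without MYB_KnockDown replicate 1 and 1 without any 1 rescue library. ENO2, an enolase, fell from 28.3, 37.1 and 37.1 FPKM to 18.2, 15.2 and 13.2 FPKM (-1.09, SE 0.14, limma adjusted p = 0.000274) and GPI, glucose-6-phosphate isomerase, from 150.2, 216 and 205 FPKM to 118, 116 and 110.4 FPKM (-0.71, SE 0.14, limma adjusted p = 0.00262). HK1, the first enzyme of the pathway, rose from 176, 233 and 248 FPKM to 348, 344 and 351 FPKM (0.68, SE 0.14, limma adjusted p = 0.00355). Immediate early genes gave 4 in each direction of 20, with 2 and 1 lower without MYB-WT_Rescue replicate 1 and 2. FOSL1, a FOS family member, rose from 23.2, 15.6 and 14.4 FPKM to 58.8, 65.7 and 52.5 FPKM, above control at 26.6, 27.1 and 23.3 FPKM (1.70, SE 0.19, limma adjusted p = 0.000139), SRF rose from 12.9, 15.7 and 15.2 FPKM to 21.7, 22.7 and 22.7 FPKM, and the phosphatase gene DUSP5 fell from 4.13, 2.87 and 2.44 FPKM to 1.49, 0.912 and 0.769 FPKM.

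**Figure D5:**
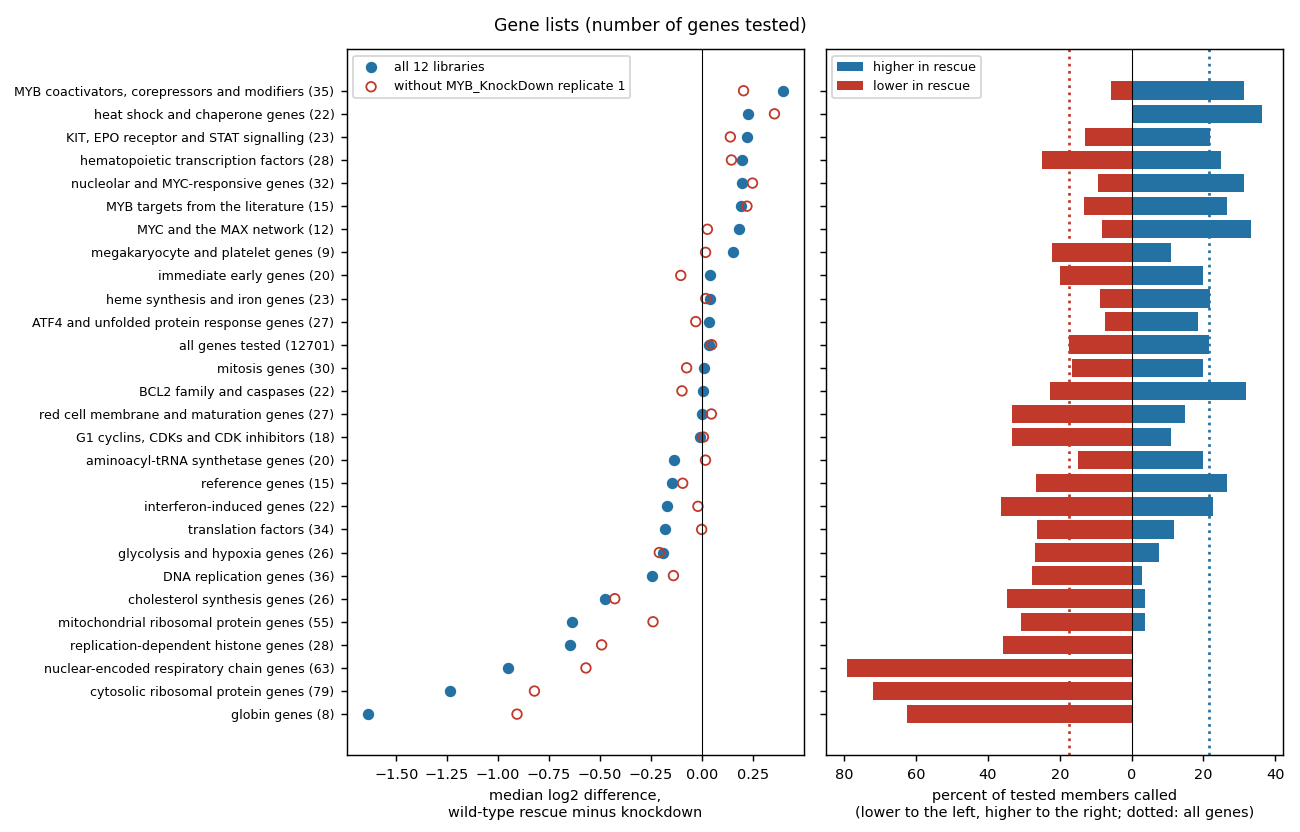
Median log2 difference (left, filled for all libraries, open without knockdown replicate 1) and percent of tested members called (right) for the gene lists, with the number of genes tested in brackets and dotted lines at the 21.6% and 17.4% of all genes. Ribosomal protein, respiratory chain and globin genes have the lowest medians and the longest bars to the left, and their medians move toward 0 without knockdown replicate 1.

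Markers of other cell types were mostly near 0 in both groups, and their part in the results was not tested. Of 18 monocyte and granulocyte markers 3 were tested and none was called, and CTSG and ELANE were at 0 in every library of both groups. Of 18 lymphocyte markers 5 were tested, with 2 lower, among them PTPRC, and CD3G higher, from 0.337, 0.0629 and 0.383 FPKM to 1.51, 1.44 and 2.19 FPKM, through which alone it reached the filter (limma adjusted p = 0.0171 with no filter), while CD27, CD8A, KLRD1 and MS4A1 were at 0 in every library of both groups. Of 16 fibroblast and epithelial markers 7 were tested and 3 were lower: KRT8, from 1516, 501 and 360.4 FPKM to 200.5, 197 and 219 FPKM, KRT18, from 608, 262 and 182 FPKM to 119, 116 and 106 FPKM, and FN1, from 38.1, 22.5 and 21.8 FPKM to 16.1, 12 and 9.73 FPKM. Their summed level was 721 to 2671 FPKM in knockdown and 494 to 519 FPKM in rescue, mostly keratins, which K-562 cells also had in control (KRT8 at 289.8, 310.1 and 265 FPKM). Megakaryocyte genes gave MYH9 higher (0.87) and CD9 and GP6 lower (-0.94 and -0.59) of 9 tested. MYH9 was at 0.57 without MYB_KnockDown replicate 1 and its call was lost without MYB-WT_Rescue replicate 2 (limma adjusted p = 0.0835), and CD9 was not tested without MYB_KnockDown replicate 1. The differences of KRT8 and KRT18, -1.66 and -1.43, were -1.05 and -0.94 without MYB_KnockDown replicate 1, and the FN1 call was lost without MYB-WT_Rescue replicate 3 (limma adjusted p = 0.0522).

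Reference genes commonly taken as stable gave 4 higher and 4 lower of 15, with 2 higher without any 1 rescue library and 2 lower without MYB-WT_Rescue replicate 2. Leaving out MYB_KnockDown replicate 1 gave 5 higher and 6 lower. POLR2A, the large subunit of RNA polymerase II, rose from 18.6, 30.5 and 28.5 FPKM to 63.2, 71.8 and 41.1 FPKM (1.14, SE 0.22, limma adjusted p = 0.00289). TUBB, a β-tubulin, had 1245, 869 and 892 FPKM in knockdown and 663, 633 and 693 FPKM in rescue (-0.58, SE 0.15, limma adjusted p = 0.0125), and its sign turned under quantile normalization.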

How the data were processed

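RNA of 12 K-562 libraries was measured by sequencing of poly(A)-selected, stranded libraries, per the labels' protocols. The authors deposited 1 table of FPKM values with a column per library. Per the submitters' processing notes, bcl2fastq 2.17.1.14, Trimmomatic 0.33, TopHat2 2.0.13, Cufflinks 2.2.1 and the GRCh38 assembly were used. The sources used here name neither the annotation nor the use of strand. Low values were checked for whole reads: a median of 4.91% of ratios between libraries of values below 0.1 FPKM lay within 2% of their median, so no count model was used and depth is unknown.

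Groups follow the titles. A gene needed 1 FPKM or more in 3 or more of the 6 libraries compared. Values were tested as log2(FPKM + 1), which understates changes of low genes, with limma 3.58.1 in R 4.3.3: all 12 libraries, a mean per group, a variance trend, 8 residual degrees of freedom and Benjamini-Hochberg adjustment over the 12701 genes. The smallest exact permutation p for 3 against 3 is 0.1. The code of the fit was run on simulated data with added changes. Those data held no deviating library and no length trend, so the run says nothing about these. Python 3.11.15, pandas 2.3.3 and matplotlib 3.10.9 made tables and figures. Symbols were matched by Ensembl identifier and coordinates by symbol to RefSeq on GRCh38.p14, for 11516 of the tested genes.

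The rule for named genes took MYB, then 10 increases and 10 decreases of largest size called with and without MYB_KnockDown replicate 1 with groups that do not overlap and a mean of at least 5 FPKM, up to 3 called members with the smallest adjusted p of each list with at least 2, and 22 fixed genes. Excluded from the largest changes were small RNAs, MTRNR2L copies, mitochondrial genes, pseudogenes and clone names. Further list members are printed by their log2 difference only. The members, the 33 lists and the fixed genes were chosen with earlier results of these data known. Some genes that the rule or the lists take are not reported here by name. Of the genes listed, 8 were not found in the table.

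Alternatives were pseudocounts of 0.1 and 0.5, other filters, quantile and median-ratio scaling, robust moderation, library weights, a replicate block, smaller sets of libraries, each library left out in turn and an adjusted p under 0.01. Removal of the length trend of each library, and combinations with MYB_KnockDown replicate 1 left out, were added after seeing the data.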

Additional observations from a re-analysis of the deposited data

Results flagged for a closer look

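For 51 of the 117 named genes the effect of rescue differed between the 2 rescue constructs. D152V rescue minus wild-type rescue was tested in the same limma fit, at a Benjamini-Hochberg adjusted p under 0.05, a test that called 11.4% of all tested genes. Most named genes were chosen for their difference between wild-type rescue and knockdown, and this test uses the same wild-type libraries. The number of them called is fixed in part by that choice and is no result. C12orf75, EPB41L3, CASP4 and ITGA4 reached the filter only through the wild-type rescue libraries, which favours a lower D152V value in advance. BCL2A1 and CD9 reached it only through knockdown, with every wild-type rescue library below the filter level, which favours a higher value. For these genes the direction given below is no support for a difference. CD3G, which also reached the filter only through wild-type rescue, was higher in the D152V line, against the favoured direction. MYB itself had 86.6, 86.2 and 100.4 FPKM in the D152V line, below all 3 wild-type rescue libraries at 132, 125 and 115 FPKM, and was not called (-0.44, limma adjusted p = 0.0513). The part of this MYB level in the differences below was not tested. Both rescue lines received the MYB siRNA and are set against the same knockdown libraries, so this difference is also that of their 2 rescue effects. The lines and the constructs cannot be told apart. With 3 libraries per group no library was tested as an outlier.

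Of the regulators, the D152V line was lower in UCA1 (-1.68 on the log2 scale), LMO2 (-1.22), KIT (-1.11), STAT5A (-0.80), ZFPM1 (-0.82), SOS1 (-0.82), MYC (-0.66), MLXIP (-0.65), CDK6 (-0.62) and FOSL1 (-1.09). Among the genes most increased in wild-type rescue it was lower in MUC19 (-4.86), CPVL (-4.36), EPB41L3 (-4.03), CDH18 (-3.70), C12orf75 (-3.42), ENPP3 (-2.15), CASP4 (-2.12), SLC16A9 (-1.96) and LCP2 (-1.81).

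Of the erythroid and iron genes, the D152V line was higher in HBE1 (2.05), PPOX (1.32), ALAS2 (1.31), GYPE (1.19) and HEMGN (0.94), and lower in SLC40A1 (-1.81). Among the genes most decreased in wild-type rescue it was higher in ALDH1A1 (3.64), SCG3 (2.21), PTPRC (1.97) and SNCG (1.44), but lower still in IFITM3 (-1.59). IFITM1 was higher in the D152V line (0.83).

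Of surface and marker genes, ITGA4 (-2.46) was lower in the D152V line, and CD9 (1.65), CD3G (1.53) and FN1 (1.34) were higher. The D152V line was also higher in BCL2A1 (1.06), RPL10 (0.93), RPL4 (0.86), H2BC12 (0.87), TK1 (0.83), CCNB2 (0.81), NSDHL (0.92), ENO2 (0.81), GPI (0.49) and QARS1 (0.64). It was lower in the chaperone and stress genes DNAJB4 (-0.87), DNAJA1 (-0.81), BAG3 (-0.53), DNAJB9 (-0.73) and SLC7A11 (-0.79), and in YARS1 (-0.61).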

How the results depend on the processing

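Of the 109 named genes that were called, 81 kept call and direction in every alternative in which they were tested, out of 30, and 1 turned sign: the TUBB log2 difference was 0.16 under quantile normalization. Most of these genes were chosen for a large change or a small adjusted p in these data. The number kept is fixed in part by that choice and says nothing about called genes in general. Fitting only the 6 libraries compared gave 988 genes higher and 752 lower and lost 22 of the 109 calls. Quantile normalization lost the calls of H2BC12, GPI, QARS1 and GATA1. An adjusted p under 0.01 gave 1496 and 1081. With each library left out in turn, 1600 to 3386 genes were higher and 1347 to 2474 lower. The lowest counts, more than 1.5 times under 2746 and 2208, came without MYB-WT_Rescue replicate 2, and the highest without MYB_KnockDown replicate 1. The share of calls that were higher was 50.6% to 58.4% over all alternatives, against 55.4%. The KLF1 log2 difference, not called as reported, turned to 0.21 with library weights, 0.22 without MYB_KnockDown replicate 1 in both sets of libraries (-0.32 to 0.22 with 1 library left out), 0.18 and 0.33 with the length trend removed (all libraries and without that replicate, the one setting that called it, limma adjusted p = 0.0446), and, without that replicate, 0.20 with the replicate block, 0.15 with quantile and 0.16 with median-ratio scaling. The CCND2 log2 difference, not called, ranged from -0.0547 (without MYB-WT_Rescue replicate 1) to 0.25 with 1 library left out, and turned to -0.25 and -0.21 with the length trend removed (all libraries and without MYB_KnockDown replicate 1), and, without the latter, -0.042 with the replicate block, -0.013 with quantile and -0.042 with median-ratio scaling. The causes were not tested. The replicate numbers were not taken to pair the libraries compared, since deviations of same-numbered rescue and knockdown libraries correlated at -0.01, 0.03 and 0.13. Among control, wild-type and D152V rescue libraries the same-numbered pairs correlated at 0.108 to 0.353, a hint that numbers share something there, although D152V_Rescue replicate 1 correlated more with siRNA_Control replicate 2 than with replicate 1, and MYB_KnockDown replicate 2 more with MYB-WT_Rescue replicate 1 than with replicate 2. The replicate block gave 2957 genes higher and 2304 lower, lost none of the 109 calls, and also called CDKN1A (0.40, limma adjusted p = 0.0371) and TAL1 (-0.35, limma adjusted p = 0.0355). Without counts, no interval for low genes could be given.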
